A study of Mus musculus with 35 samples.

Results

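The 10 genes described here encode the receptors on which pilocarpine acts and the nearest steps of their signalling: the muscarinic acetylcholine receptors Chrm1 to Chrm5, the G protein alpha subunits Gnaq and Gna11, the phospholipases C beta Plcb1 and Plcb4, and acetylcholinesterase, Ache. They were chosen by name, not by a measured value, and all 10 were found among the 43629 genes of the mRNA count data. Poly(A) RNA of the left hippocampus was sequenced from 19 mice, 11 after status epilepticus (SE) and 8 controls. The question asked of these genes was whether SE brought on by pilocarpine is followed, within 120 h, by a different amount of mRNA for those receptors and their effectors.

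Pilocarpine is a plant alkaloid that activates muscarinic receptors and is used to bring about SE, a prolonged seizure, as a model of temporal lobe epilepsy. The receptors encoded by Chrm1, Chrm3 and Chrm5 couple to Gq and G11, which switch on phospholipase C beta and so release inositol trisphosphate and diacylglycerol, while those encoded by Chrm2 and Chrm4 couple to Gi and Go, which lower cyclic AMP and open inwardly rectifying potassium channels. In the hippocampus, acetylcholine comes largely from axons of the medial septum and diagonal band, and acetylcholinesterase ends its action.

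The SE mice were C57BL/6J mice of either sex, 6 to 7 weeks old, given pilocarpine by intraperitoneal injection, and were killed 1 h (n = 3), 8 h (n = 2), 36 h (n = 3) or 120 h (n = 3) after the seizure began. The labelled dose of 350 mg/kg is, by the study's methods, the initial one, and smaller doses followed until seizures set in, so the total dose may differ between mice and times. The control mice, of the same strain and ages, were given saline vehicle: 2 for 1 h, 3 for 8 h and 3 that serve for 36 h and 120 h alike and whose titles name time 0. By the study's methods, mice of both arms were injected beforehand with scopolamine, a blocker of muscarinic receptors, so the controls are not free of muscarinic drug. All SE mice and no control mice were given pilocarpine. Effects of the drug on these genes and effects of the seizure therefore cannot be told apart. The 36-h and 120-h comparisons share their 3 control mice and are not independent of each other. Read from Xist and Ddx3y, 1 of 3 SE and 1 of 2 control mice of 1 h were female, as were 1 of 2 SE and 1 of 3 control mice of 8 h. Of the SE mice 0 of 3 at 36 h and 1 of 3 at 120 h were female, against 2 of 3 shared controls, so sex and SE are partly confounded at these times, most of all at 36 h.

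The libraries held 8503816 to 28465548 counts, and 17536 to 22422 genes had at least 1 count. The labels give 4 batches, named G511, G369, G317 and G545. At 1 h control replicate 1 and SE replicate 3 are of G511 and the other 3 libraries of G369. At 8 h control replicate 1 is of G511 and the other 4 libraries of G317, and all 9 libraries of 36 h and 120 h are of G545. Differences of 36 h and 120 h from the earlier times therefore cannot be told apart from batch, and 1 h and 8 h share only G511. SE replicate 2 of 120 h stands apart in a few markers of neighbouring brain regions. Of 8 thalamic markers Prkcd (87.4 CPM, the count scaled for library size, against 29.3 and 30.4 in the other 120-h SE libraries) and Slc17a6 (25.3 CPM against 9.70 and 12.4) were high there, while Lef1, Ramp3 and Synpo2 were below both other libraries. The striatal marker Drd2 was also high there (6.72 CPM against 1.53 and 1.45). Markers of choroid plexus epithelium (20 genes) had a mean log2 CPM of 5.51 and 5.46 in SE replicates 1 and 2 of 36 h and 5.69 in SE replicate 3 of 120 h, against 0.63 to 1.18 in the other 6 libraries of G545. Of 6 markers of cholinergic neurons 4 were found, with 0 to 8 counts a library of Chat, the enzyme that makes acetylcholine, 5 to 32 of the choline transporter Slc5a7 and 0 to 87 of Isl1, whose highest count is that of SE replicate 2 of 120 h.

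The mRNA of the 10 genes was detected in all 19 libraries, and 10 of 10 passed the filter on low counts at each time. In the quasi-likelihood test of edgeR with a threshold of 0.05 on the adjusted p, 0 of 10 passed between SE and control mice at any of the 4 times. Few of all genes tested passed either, namely 13 of 16264 (0.0799%) at 1 h, 0 of 15610 (0%) at 8 h, 4 of 15850 (0.0252%) at 36 h and 9 of 15996 (0.0563%) at 120 h. At an unadjusted p under 0.05 in the same test, 0 of the 10 differed at 1 h (all genes, 4.39%), 0 at 8 h (9.47%), 2 at 36 h (Chrm3 and Gnaq; 7.89%) and 3 at 120 h (Chrm5, Gnaq and Plcb1; 9.6%). By the likelihood ratio test of edgeR 0 of the 10 passed at each time, and by DESeq2 only Gnaq did, at 120 h. The SE libraries lay above the controls without overlap for 1, 0, 0 and 0 of the 10 genes at 1, 8, 36 and 120 h (all genes, 9.91%, 14.6%, 6% and 6.33%), and below them for 1, 1, 2 and 2 (8.55%, 13.4%, 8.28% and 9.1%). How large a difference could have gone unseen is given by the 95% intervals of the log2 fold changes. For the 4 times in turn they lay within 0.5 of 0 for 5, 0, 7 and 6 genes, and within 1 of 0 for 9, 8, 9 and 8 genes. The 8-h comparison, with 2 SE mice and controls of 2 batches, is thus the least precise. The median log2 fold change of the 10 genes at 1, 8, 36 and 120 h was -0.01, -0.09, -0.07 and -0.03, beside -0.00, -0.01, 0.01 and 0.01 over all genes tested.

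**Figure D1:**
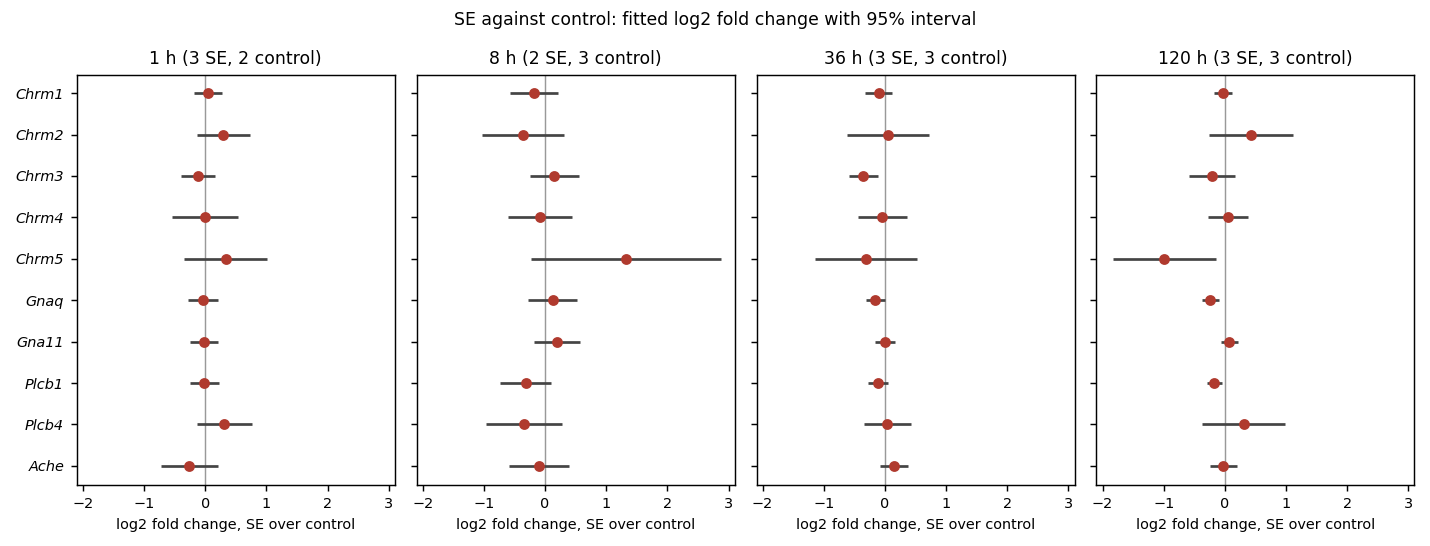
Fitted log2 fold change of SE over control (points) with its 95% interval (lines) for the 10 genes at 1, 8, 36 and 120 h, from edgeR's quasi-likelihood fit at each time. Chrm5 has the widest intervals, and at 8 h no gene's interval lies within 0.5 of 0.

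Chrm1, the principal muscarinic receptor of hippocampal pyramidal neurons (ENSMUSG00000032773, chromosome 19 from 8738495 to 8758077 of NCBIM37), was among the steadiest of the genes, with levels that spanned only 1.60-fold over the 19 libraries. CPM values here are scaled with TMM factors. Chrm1 had 252, 248 and 238 CPM in the SE mice of 1 h, against 225 and 252 in their controls. In the 8-h mice it had 279 and 257 CPM after SE, against 256, 299 and 349 in controls. At 36 h, Chrm1 had 218, 221 and 276 CPM and at 120 h 277, 241 and 242 CPM after SE, against 270, 260 and 249 in the shared controls. The groups overlapped at every time. The log2 fold changes, with standard errors, were 0.04 ± 0.10, -0.18 ± 0.17, -0.10 ± 0.10 and -0.03 ± 0.07 at 1, 8, 36 and 120 h. The 2 low values at 36 h are those of the libraries with high choroid plexus markers. Within G545 the correlation of Chrm1 with that score was -0.81 (9 libraries), against -0.25 over all 19 libraries. With the score as a covariate the value at 36 h was 0.08 ± 0.09. At 36 h the score was high only in SE libraries, so it is partly confounded with SE. The part of choroid plexus tissue in the Chrm1 values was not tested beyond fitting that score. At 120 h the 95% interval ran from -0.18 to 0.12, so a loss of Chrm1 mRNA larger than that lay outside the interval.

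Chrm3, a Gq-coupled receptor of many neurons and of smooth muscle and glands (ENSMUSG00000046159, chromosome 13 from 9876381 to 9878329), had its smallest p at 36 h. It had 53.9, 45.1 and 56.1 CPM in the SE mice of 36 h, against 64.5, 62.3 and 74.5 CPM in the controls, so the groups did not overlap, which was true of 8.28% of all genes in that direction. Chrm3 thus had a log2 fold change of -0.36 ± 0.11 (95% interval -0.59 to -0.12), with an unadjusted p of 0.00801 and an adjusted p of 0.423 from edgeR's test, so the difference did not pass. Over the 15 alternatives it stayed between -0.42 and -0.25, the latter when fitted together with the choroid plexus score. Adjusted p ran from 0.0709 (without SE replicate 3) to 0.999. Markers of CA1 pyramidal neurons ran the same way: 6 of 6 had a negative log2 fold change at 36 h (median -0.43, 4 of them at an unadjusted p under 0.05), and their score, the mean log2 CPM, was 5.68 to 6.26 after SE and 6.12 to 6.64 in controls, with 0 of 6 markers at 0 counts in any of these libraries. The Pearson correlation of Chrm3 with that score was 0.85 within the 9 libraries of G545, which share 1 batch. Over all 19 libraries it was 0.26. With the choroid plexus score it was -0.65 within G545 and -0.56 over all 19 libraries. The part of CA1 pyramidal neurons in the Chrm3 values was not tested. That of choroid plexus tissue was not tested beyond fitting its score. In such bulk samples fewer cells of a type and less RNA per cell cannot be told apart.

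At 120 h Chrm3 had 48.6, 75.4 and 48.6 CPM after SE, the high value being that of SE replicate 2, the library with high Prkcd, Slc17a6 and Drd2. The log2 fold change was -0.21 ± 0.16 with that library and -0.46 ± 0.09 (adjusted p = 0.299, edgeR) without it. At 1 h Chrm3 had 48.3, 54.0 and 55.6 CPM after SE, against 58.0 and 56.3 in controls. These groups did not overlap (8.55% of all genes in that direction), and the log2 fold change was -0.12 ± 0.12. Chrm3 at 8 h had 51.4 and 59.3 CPM after SE, against 55.4, 48.7 and 44.3 in controls, a log2 fold change of 0.15 ± 0.17.

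Chrm5, a Gq-coupled receptor best known from dopamine neurons of the midbrain (ENSMUSG00000074939, chromosome 2 from 112319229 to 112320974), had the fewest counts of the 10 genes, 5 to 90 a library, and the widest range, 14.7-fold between the lowest and highest CPM. At 8 h it had 61 and 88 counts in the SE libraries, which is 7.17 and 3.18 CPM. The controls had 53, 17 and 5 counts, or 3.73, 1.58 and 0.489 CPM. The highest control is replicate 1, the library of the other batch, and without it both SE libraries lay above both controls. The log2 fold change was 1.32 ± 0.69 (adjusted p = 0.572, edgeR). With batch as a covariate it was 2.25 ± 0.64 (adjusted p = 0.0366), and without control replicate 1 it was 2.24 ± 0.64 (adjusted p = 0.0416), and Chrm5 was the only 1 of the 10 genes to pass in these fits. In the same fits 2111 (with batch) and 2065 (without that library) of all genes passed, against 0 of 15610 in the comparison as made, and the controls that carry the Chrm5 value then number 2, with 17 and 5 counts. Leaving out SE replicate 1 gave 0.67 ± 0.85 and leaving out control replicate 3 gave 0.88 ± 0.56.

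At 1 h Chrm5 had 5.20, 5.27 and 3.55 CPM after SE, against 3.95 and 3.49 in controls, a log2 fold change of 0.33 ± 0.29. Chrm5 at 36 h had 1.76, 2.07 and 3.03 CPM and at 120 h 1.53, 1.078 and 1.77 CPM after SE, against 2.74, 4.37 and 1.65 in the shared controls. The log2 fold changes were -0.31 ± 0.37 at 36 h and -0.99 ± 0.37 at 120 h. The value at 120 h had an unadjusted p of 0.0257 and an adjusted p of 0.462 (edgeR). At 120 h the groups overlapped through SE replicate 3 and control replicate 3. Leaving out control replicate 2, the highest, gave -0.60 ± 0.33, and with the thalamic score as a covariate the value was -0.29 ± 0.31.

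**Figure D2:**
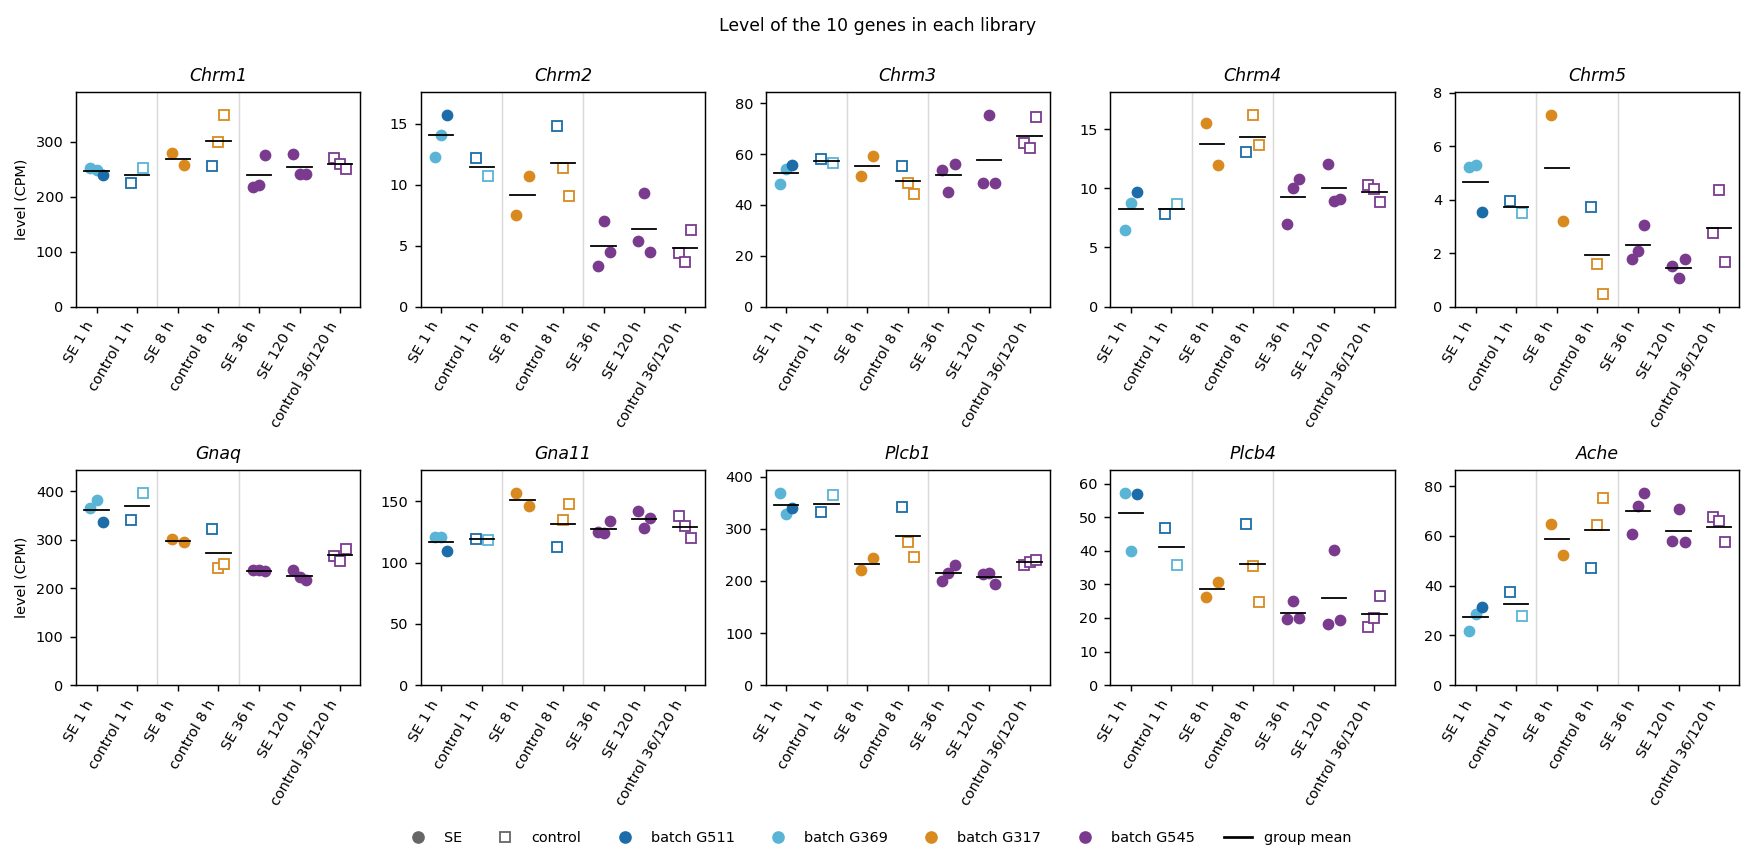
Level in CPM of each of the 10 genes in the 19 libraries, by group, with filled circles for SE, open squares for control, colours for the batch of the labels and lines for group means; each panel starts at 0 and has its own scale. Ache stands at 21.8 to 47.04 CPM in the libraries of G511 and G369 and at 52.5 to 77.2 CPM in the others, and Gnaq and Plcb1 run the other way.

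Chrm2, the Gi-coupled receptor found on cholinergic terminals and interneurons (ENSMUSG00000045613, chromosome 6 from 36338084 to 36478414), had 56 to 297 counts a library. At 1 h it had 12.3, 14.1 and 15.8 CPM after SE, against 12.2 and 10.7 in controls. The groups did not overlap, which held for 9.91% of all genes in that direction, and the log2 fold change was 0.30 ± 0.19 (adjusted p = 0.999, edgeR). Within the batches the difference of mean log2 CPM, SE minus control, was 0.37 in G511 (1 SE and 1 control library) and 0.30 in G369 (2 and 1). At 8 h Chrm2 had 7.52 and 10.7 CPM after SE, against 14.8, 11.4 and 9.09 in controls, a log2 fold change of -0.36 ± 0.29. Within G317 the difference of mean log2 CPM was -0.18. With the thalamic score as a covariate, an alternative chosen after seeing the data, the log2 fold change turned its sign, to 0.35 ± 0.35.

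At 36 h Chrm2 had 3.36, 7.00 and 4.52 CPM and at 120 h 5.37, 9.33 and 4.47 CPM after SE, against 4.44, 3.65 and 6.30 in the shared controls. The log2 fold changes were 0.05 ± 0.30 and 0.43 ± 0.30. The value at 120 h rests on SE replicate 2: without that library it was 0.04 ± 0.25, and with the thalamic score as a covariate it was -0.14 ± 0.21.

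Chrm4, the Gi-coupled receptor that is most abundant in the striatum (ENSMUSG00000040495, chromosome 2 from 91762346 to 91769986), had 109 to 330 counts a library and overlaps Mdk on the opposite strand. At 1 h it had 6.44, 8.73 and 9.65 CPM after SE, against 7.84 and 8.69 in controls. In the 8-h mice it had 15.5 and 11.9 CPM after SE, against 13.1, 16.2 and 13.7 in controls. Chrm4 at 36 h had 7.00, 10.1 and 10.8 CPM and at 120 h 12.1, 8.92 and 9.13 CPM after SE, against 10.3, 9.97 and 8.85 in controls. The groups overlapped at each time, and the log2 fold changes ran only from -0.08 ± 0.23 at 8 h to 0.06 ± 0.14 at 120 h, with adjusted p of at least 0.911 (edgeR). Its 95% interval at 8 h still ran from -0.61 to 0.44.

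Gnaq encodes the alpha subunit of Gq, which carries the signal of Chrm1, Chrm3 and Chrm5 to phospholipase C (ENSMUSG00000024639, chromosome 19 from 16207321 to 16461953). It had the smallest p of the 10 genes. At 120 h it had 237, 223 and 216 CPM after SE, against 266, 256 and 282 in controls, and the groups did not overlap (9.1% of all genes in that direction). Its log2 fold change was -0.24 ± 0.06 (95% interval -0.37 to -0.10), or 0.847 as a fold, with an unadjusted p of 0.00327 and an adjusted p of 0.324 (edgeR), so the difference did not pass. DESeq2 put it past the threshold at an adjusted p of 0.049, and over all 15 alternatives the value was -0.27 to -0.20, with adjusted p from 0.049 to 1.

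At 36 h Gnaq had 237, 237 and 235 CPM after SE, against the same 3 controls, and again the groups did not overlap (8.28% of all genes in that direction). That gave a log2 fold change of -0.16 ± 0.07 (unadjusted p = 0.0445, adjusted p = 0.621, edgeR). Gnaq at 8 h had 302 and 295 CPM after SE, against 323, 242 and 250 in controls, where the highest control is again replicate 1 of batch G511. Its log2 fold change was 0.12 ± 0.17, and 0.27 ± 0.11 with batch as a covariate (adjusted p = 0.127). At 1 h it had 365, 382 and 336 CPM after SE, against 342 and 396 in controls, a log2 fold change of -0.03 ± 0.11.

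Gna11, whose product G11 couples to the same receptors as Gq (ENSMUSG00000034781, chromosome 10 from 80991469 to 81007935), spanned 1.43-fold over the 19 libraries, the narrowest range of the 10 genes. It had 121, 121 and 110 CPM after SE and 119 and 119 in controls at 1 h, and 157 and 146 CPM after SE, against 113, 135 and 148 in controls, at 8 h. At 36 h it had 125, 124 and 134 CPM and at 120 h 142, 128 and 137 CPM after SE, against 138, 130 and 120 in controls. Its groups overlapped at each time. Beside the Gnaq values above, the log2 fold changes of Gna11 were -0.00 ± 0.07 at 36 h and 0.08 ± 0.06 at 120 h, with an interval of -0.07 to 0.22 at 120 h. Whether the 2 alpha subunits differ in their response was not tested.

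Plcb1, the phospholipase C beta that is most prominent in hippocampal pyramidal neurons (ENSMUSG00000051177, chromosome 2 from 134611895 to 135300994), had a negative fitted value at each of the 4 times, though at 1 h it was -0.01 ± 0.10. At 120 h it had 213, 215 and 195 CPM after SE, against 231, 236 and 240 in controls, without overlap (9.1% of all genes in that direction). Plcb1 had a log2 fold change of -0.17 ± 0.06 (unadjusted p = 0.0132, adjusted p = 0.407, edgeR) and -0.21 to -0.14 over the alternatives. At 36 h it had 199, 215 and 231 CPM after SE, against the same 3 controls, the lowest of which lay just under the highest SE value, and the log2 fold change was -0.11 ± 0.07. Fitted together with the choroid plexus score it was -0.03 ± 0.09. Within G545 the correlation of Plcb1 with that score was -0.78, against 0.41 over all 19 libraries. The part of choroid plexus tissue in the Plcb1 values was not tested beyond fitting that score. Plcb1 at 8 h had 221 and 243 CPM after SE, against 341, 274 and 245 in controls, again without overlap (13.4% of all genes in that direction). The log2 fold change there was -0.31 ± 0.18, -0.17 ± 0.12 with batch as a covariate and 0.13 ± 0.16 with the thalamic score. At 1 h it had 368, 328 and 341 CPM after SE and 332 and 364 in controls.

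Plcb4, the phospholipase C beta of thalamic and cerebellar neurons (ENSMUSG00000039943, chromosome 2 from 135484747 to 135840329), had 57.1, 39.9 and 56.8 CPM after SE at 1 h, against 46.7 and 35.7 in controls. Plcb4 at 8 h had 26.3 and 30.8 CPM after SE, against 48.0, 35.5 and 24.7 in controls. For 36 h the values were 19.7, 25.2 and 20.03 CPM and for 120 h 18.1, 40.2 and 19.5 CPM after SE, against 17.4, 20.01 and 26.5 in controls. The groups overlapped at every time, with log2 fold changes of 0.31 ± 0.20, -0.35 ± 0.27, 0.04 ± 0.17 and 0.31 ± 0.30. At 120 h the sign turned with SE replicate 2, whose 40.2 CPM is more than any other library of G545: without it the value was -0.17 ± 0.17. With the thalamic score as a covariate the sign turned at 8 h (0.47 ± 0.25) and at 120 h (-0.31 ± 0.19), and with sex as a covariate the value at 36 h was 0.34 ± 0.22.

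Chrm2 and Plcb4 followed the thalamic score across libraries. Over the 9 libraries of G545, the correlation with the thalamic score was 0.85 for Chrm2 and 0.82 for Plcb4, and 0.69 and 0.52 over the 8 libraries that are left without SE replicate 2 of 120 h. Between Chrm2 and Plcb4 it was 0.84, and 0.66 without that library. For Chrm5 the correlation with the score was -0.88 in G545, and -0.83 without that library, against -0.01 over all 19 libraries. These are Pearson correlations of log2 CPM, given as a description. Only those within G545 are of libraries that share a batch. At 8 h 7 of the 8 thalamic markers had a negative log2 fold change (median -0.59), and their summed level was 147 to 154 CPM after SE and 168 to 254 CPM in controls. At 120 h it was 117 to 191 CPM in the SE libraries and 109 to 142 CPM in the controls, with 0 of 8 at 0 counts at either time. The 191 CPM is that of SE replicate 2 and comes largely from Prkcd and Slc17a6, so the score there does not stand for the 8 markers as a set. The part of tissue from outside the hippocampus in the Chrm2 and Plcb4 values was not tested beyond leaving out that library and fitting the score.

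**Figure D3:**
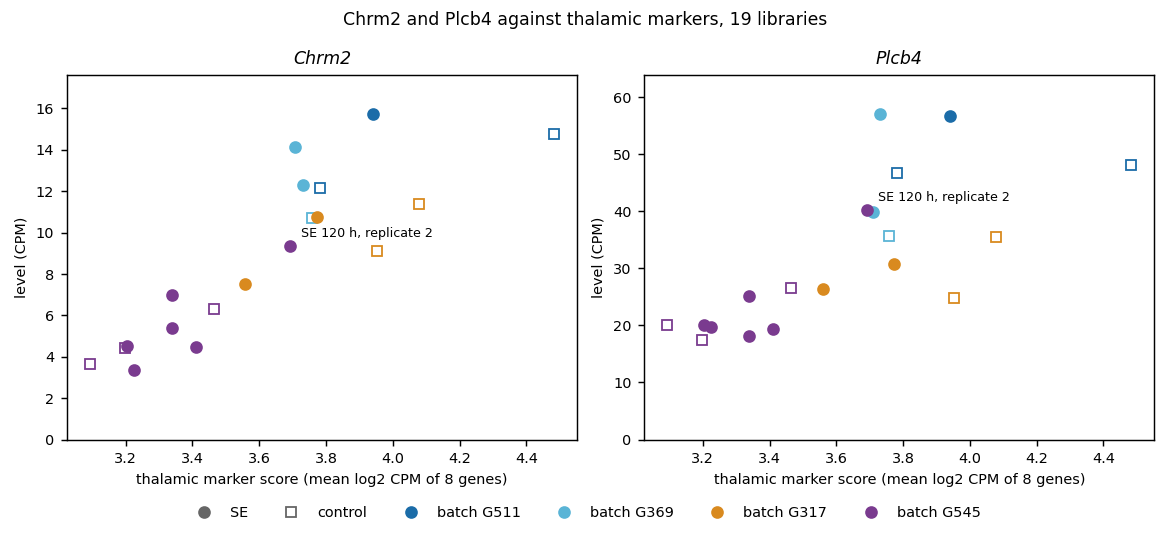
Level in CPM of Chrm2 (left) and Plcb4 (right) against the thalamic marker score, the mean log2 CPM of 8 marker genes, in the 19 libraries, with filled circles for SE, open squares for control and colours for batch. SE replicate 2 of 120 h, at 9.33 CPM of Chrm2 and 40.2 CPM of Plcb4, stands above the other libraries of G545 in both panels.

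Ache encodes acetylcholinesterase, the enzyme that splits acetylcholine at the synapse (ENSMUSG00000023328, chromosome 5 from 137728747 to 137735694). Its level differed more between batches than between SE and control mice. G511 and G369 hold the libraries of 1 h and control replicate 1 of 8 h, so batch and time are largely confounded here. At 1 h Ache had 21.8, 28.7 and 31.3 CPM after SE, against 37.6 and 27.7 in controls, a log2 fold change of -0.26 ± 0.20. Within the batches the difference of mean log2 CPM, SE minus control, was -0.26 in G511 and -0.15 in G369. Ache at 8 h had 64.7 and 52.5 CPM after SE, against 47.04, 64.5 and 75.4 in controls, a log2 fold change of -0.10 ± 0.22. At 36 h it had 60.8, 72.0 and 77.2 CPM and at 120 h 58.1, 70.8 and 57.4 CPM after SE, against 67.6, 66.0 and 57.6 in controls, with log2 fold changes of 0.15 ± 0.10 and -0.02 ± 0.10. The groups overlapped at each time, and the smallest adjusted p of Ache at the 4 times was 0.759 (edgeR).

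Over the 19 libraries Gnaq and Plcb1 varied together and Ache against them, and the relation to Ache was weak among the libraries of G545. The Pearson correlation of Gnaq with Plcb1 was 0.89 over the 19 libraries and 0.78 over the 9 of G545. That of Gnaq with Ache was -0.87 over the 19 libraries and -0.14 within G545, and that of Plcb1 with Ache was -0.85 and 0.34. Taken as deviations from the group means, the values over the 19 libraries were -0.67 for Gnaq with Ache and -0.59 for Plcb1 with Ache. G317, G511 and G369 hold 3 or 4 libraries each, too few for a correlation. The libraries of G511 and G369 had 323 to 396 CPM of Gnaq and 21.8 to 47.04 CPM of Ache, and those of G317 and G545 had 216 to 302 CPM of Gnaq and 52.5 to 77.2 CPM of Ache, with no overlap in either gene. Of these, G511 and G369 hold the libraries of 1 h and control replicate 1 of 8 h, so batch and time are largely confounded in this split.

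**Figure D4:**
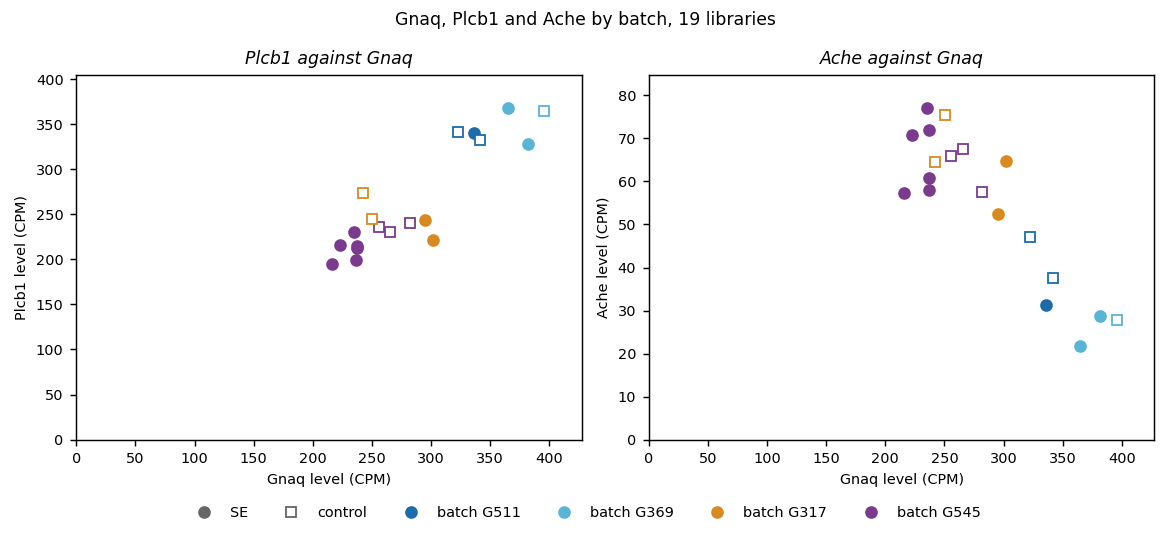
Level in CPM of Plcb1 (left) and Ache (right) against that of Gnaq in the 19 libraries, with filled circles for SE, open squares for control and colours for batch. Ache separates the libraries of G511 and G369 (21.8 to 47.04 CPM) from those of G317 and G545 (52.5 to 77.2 CPM).

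The sequences before the start sites of Gnaq and Plcb1, which varied together, and of Ache and Chrm5 are shown so that their make-up can be compared. They are the 250 bases before the annotated start, 5′ to 3′ on the gene's strand, from RefSeq for GRCm38.p6, a later build than that of the counts. Of the 10 genes 9 have an entry. Capitals mark matches on either strand of the GC box, GGGCGG, which 32.7% of the 32851 RefSeq start regions of this length hold.
Gnaq, chr19:16132434-16132683, plus strand: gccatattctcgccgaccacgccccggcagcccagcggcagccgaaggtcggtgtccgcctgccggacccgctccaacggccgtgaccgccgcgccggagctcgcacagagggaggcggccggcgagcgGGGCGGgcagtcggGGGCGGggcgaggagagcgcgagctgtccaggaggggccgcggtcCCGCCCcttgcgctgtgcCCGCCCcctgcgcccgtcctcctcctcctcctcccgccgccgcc
Plcb1, chr2:134785914-134786163, plus strand: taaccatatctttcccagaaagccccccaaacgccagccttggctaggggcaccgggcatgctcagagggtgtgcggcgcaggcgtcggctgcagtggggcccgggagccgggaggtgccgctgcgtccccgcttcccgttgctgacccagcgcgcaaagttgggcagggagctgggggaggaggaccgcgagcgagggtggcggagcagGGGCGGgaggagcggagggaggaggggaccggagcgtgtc
Ache, chr5:137288004-137288253, plus strand: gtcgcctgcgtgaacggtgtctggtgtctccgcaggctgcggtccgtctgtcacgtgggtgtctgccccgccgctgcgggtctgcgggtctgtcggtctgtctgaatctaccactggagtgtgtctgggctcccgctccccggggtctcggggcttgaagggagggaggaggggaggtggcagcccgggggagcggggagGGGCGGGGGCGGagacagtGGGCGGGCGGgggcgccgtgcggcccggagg
Chrm5, chr2:112480818-112481067, minus strand: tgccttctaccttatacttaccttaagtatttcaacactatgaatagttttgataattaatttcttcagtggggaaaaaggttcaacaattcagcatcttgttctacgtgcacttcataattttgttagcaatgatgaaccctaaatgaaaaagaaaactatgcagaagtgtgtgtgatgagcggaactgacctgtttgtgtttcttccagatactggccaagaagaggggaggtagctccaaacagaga
Gnaq has 4 GC boxes and a GC content of 79.2%, Plcb1 has 1 and 71.2%, Ache has 4 and 73.6%, and Chrm5 has 0 and 37.6%, beside a median GC content of 52.4% over all these regions. Of the 9 genes, 7 hold a GC box. The Egr element GCGNGGGCG, found in 4.7% of all regions, was in 1 of the 9, Ache, at 2 places that each overlap a GC box. The cAMP response element TGACGTCA (1.55% of all regions) and the AP-1 element TGANTCA (6.75%) were in 0 of the 9. These are matches of letters in short windows and not measured binding.

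The wider pathway was read from 7 lists of related genes, and 0 of their genes passed at any time (adjusted p, edgeR). Among 20 Gq effectors, which include the calcium release channel Itpr1 and protein kinase C genes, 18 had a negative log2 fold change at 36 h, with a median of -0.12 beside 0.01 over all genes. Of all genes tested at 36 h, 51.7% had a positive value. At 120 h the values of the 20 effectors ran from -0.38 to 2.90. At an unadjusted p under 0.05, 5 of 20 differed at 36 h and 8 of 20 at 120 h (background 7.89% and 9.6%). Itpr1 had a log2 fold change of -0.39 ± 0.11 at 36 h (adjusted p = 0.402) and of -0.30 ± 0.09 at 120 h. Kcnq3, a subunit of the M current that muscarinic receptors close, had -0.30 ± 0.09 at 36 h (adjusted p = 0.423, edgeR). Dgkb, a diacylglycerol kinase, had -0.30 ± 0.08 at 120 h. At 8 h 12 of the 20 effectors had a positive value (all genes, 49.1%), among them Prkcb, a protein kinase C gene (0.30 ± 0.16).

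Of 10 other Gq-coupled receptors, Ednrb, an endothelin receptor of astrocytes, had a log2 fold change of 0.48 ± 0.13 at 36 h (adjusted p = 0.393, edgeR). Among 13 genes of RGS proteins, receptor kinases and arrestins, which shorten or end G protein signals, Rgs8 had 0.46 ± 0.18 at 8 h, -0.28 ± 0.08 at 36 h and -0.33 ± 0.06 at 120 h (adjusted p = 0.502, 0.409 and 0.163, edgeR). On the Gi and Go side, of 11 genes, Gnao1, the alpha subunit of Go, had -0.45 ± 0.18 at 8 h and -0.15 ± 0.06 at 120 h, and the adenylyl cyclase Adcy9 had -0.27 ± 0.07 at 120 h. Of 4 further Gq alpha and phospholipase C beta genes, 0 differed at an unadjusted p under 0.05 at any time.

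Of 15 nicotinic receptor genes, the other class of acetylcholine receptor, 7 to 10 passed the filter on low counts at each time. Chrna4 had -0.52 ± 0.18 at 8 h and Chrna5 -0.57 ± 0.23 at 36 h, with adjusted p of 0.495 and 0.578 (edgeR), and Chrnb1 had 2.15 ± 0.64 at 1 h at levels of 1.14 CPM after SE and 0.245 CPM in controls. Of 9 genes of acetylcholine synthesis, transport and breakdown, 8 were found and 6 tested. Prima1, the membrane anchor of acetylcholinesterase in brain, had 2.15 ± 0.205 CPM after SE at 120 h and 3.12 ± 0.359 CPM in controls (SD, n = 3 each). These groups did not overlap, which held for 9.1% of all genes in that direction. The log2 fold change of Prima1 was -0.52 ± 0.20 (adjusted p = 0.466, edgeR). Lynx1, a modulator of nicotinic receptors, had -0.20 ± 0.08 at that time.

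**Figure D5:**
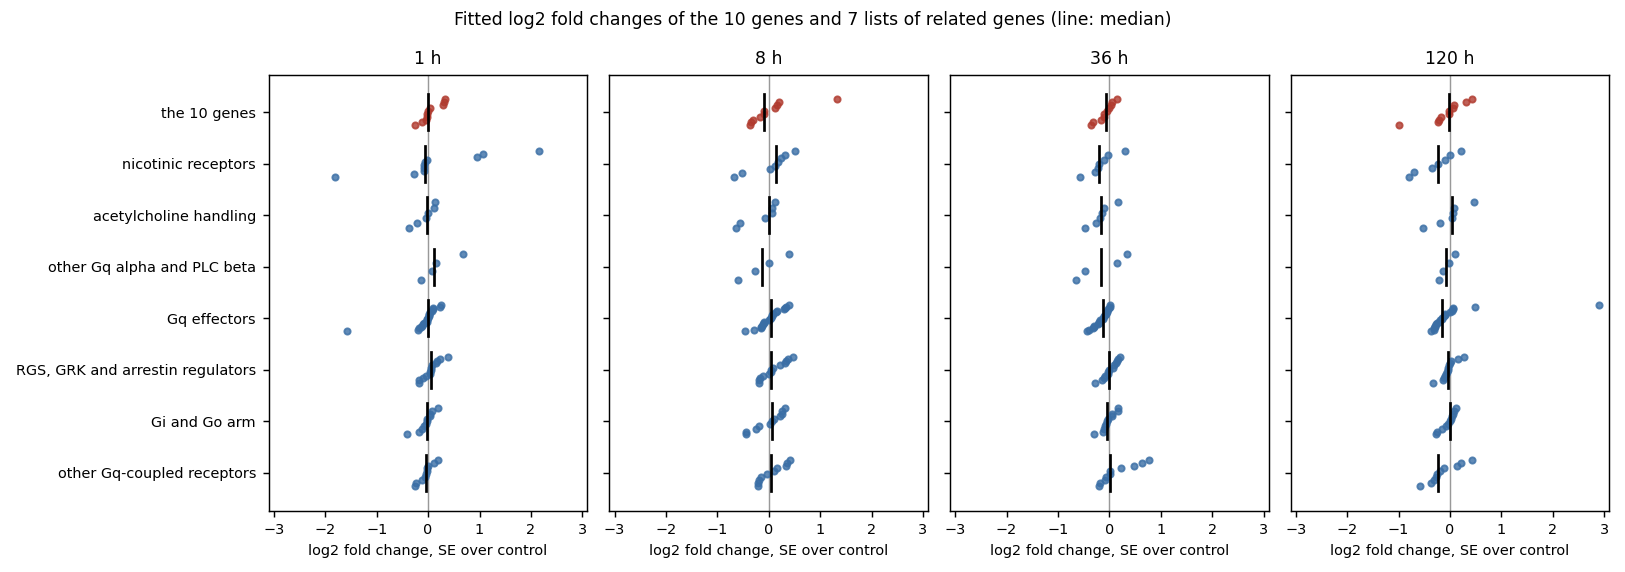
Fitted log2 fold changes of SE over control at 1, 8, 36 and 120 h for the 10 genes (top row, red) and the tested genes of 7 lists of related genes (blue), with black lines for medians. The 20 Gq effectors lie mostly left of 0 at 36 h (18 of 20) and at 120 h (14 of 20), where their largest value is 2.90. Of all genes tested, 51.7% at 36 h and 53.0% at 120 h had a positive value.

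Whether the response of a gene changed between times was tested in 1 fit of all 19 libraries, as a difference between SE effects that are each taken against the controls of their own time. Of the 10 genes 0 passed between 8 h and 1 h, between 36 h and 8 h or between 120 h and 36 h, beside 0.149%, 0.144% and 0.0804% of 17415 genes, and 0 passed the joint test of the 4 SE effects, beside 0.528%. At an unadjusted p under 0.05, the counts were 0, 2, 0 and 0 of 10, beside 12.3%, 14.1%, 4.21% and 11.3% of all genes. The 2 were Chrm3, with a log2 difference of -0.54 ± 0.23 between 36 h and 8 h (unadjusted p = 0.0272, adjusted p = 0.294, edgeR), and Chrm5, with -1.66 ± 0.72 (unadjusted p = 0.0323, adjusted p = 0.309). With batch as a covariate Chrm5 (-2.58 ± 0.70, adjusted p = 0.0214) and Gnaq (-0.46 ± 0.10, adjusted p = 0.00781) passed between 36 h and 8 h, and without control replicate 1 of 8 h the values were -2.59 ± 0.69 (adjusted p = 0.022) and -0.46 ± 0.12 (adjusted p = 0.0211). In these fits 2379 and 1976 of all genes passed that contrast, against 25 in the fit as made.

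The genes whose levels ran most like each receptor over the 19 libraries were, for Chrm3, Dkk3 (Pearson r = 0.76), which is also 1 of the 6 CA1 markers, the nicotinic subunit gene Chrna5 (0.73) and the glutamate transporter gene Slc1a1 (0.70). For Chrm2 and Plcb4, 2 of the 3 nearest genes were shared, Galnt13 (0.97 and 0.93) and Ankrd44 (0.95 and 0.92), and Gad2, which makes GABA, came first for Plcb4 (0.93). Chrm1 ran most like Pacsin1 (0.90), and Chrm5 like Apaf1 (0.88). These correlations are taken over 17414 genes and libraries that differ in batch and time, and rank the genes as a description.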

How the data were processed

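The authors prepared 1 stranded poly(A) library a mouse, made adapter-trimmed reads with bcl2fastq, used HISAT2 2.1.0 for alignment to NCBIM37, and HTSeq to count. The deposited values are raw counts per gene. The counting's strand setting is not given in the sources used here, and the identifiers reach beyond the stated annotation. Levels are not given per length. Chrm1, Chrm2, Chrm4, Gnaq, Plcb1 and Plcb4 overlap other annotated genes, and their counts may be too high or too low for that reason. Names and positions are from GENCODE for NCBIM37 (33068 of 43629 identifiers named).

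Genes passing filterByExpr were fitted separately for each time with TMM factors, and the SE effect was tested with glmQLFTest (edgeR 4.0.16, R 4.3.3), p being adjusted by Benjamini and Hochberg over all genes tested. Log2 CPM carries a prior count of 1. Alternatives were the likelihood ratio test, DESeq2 1.42.0, RLE, no filter, 1 fit of 19 libraries, a replicate block, marker scores, sex read from Xist and Ddx3y, or batch as a covariate, and omission of single libraries. The small RNA counts were not used. The steps were tested on simulated data. Named from each list were genes that passed, else up to 2 with the smallest p, and a few more chosen after their values were seen. Some genes of these lists are not reported here. The genes and lists were chosen with earlier results of these data known.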

Additional observations from a re-analysis of the deposited data

How the results depend on the processing

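The count of the 10 genes that passed at 1 h and at 36 h was 0 under every alternative. At 8 h it was 0 to 1 when 1 library was left out, 1 with batch as a covariate (Chrm5) and 2 with the thalamic score as a covariate (Chrm1, -0.53 ± 0.16, adjusted p = 0.0441, and Ache, -0.71 ± 0.17, adjusted p = 0.018), in which 2700 genes passed, a fit chosen after seeing the data with a score that itself did not overlap between the groups (3.56 and 3.77 after SE, 3.95 to 4.48 in controls). The library that gives the 1 is control replicate 1. At 120 h it was 1 with DESeq2 (Gnaq). The joint test of the 4 times gave 1 without a filter on low counts (Chrm5, adjusted p = 0.0217) and 1 with batch as a covariate (Gnaq, adjusted p = 0.026), fits in which 1269 of 27279 and 1513 of 17415 genes passed, against 92 of 17415. Between 36 h and 8 h it was 2 with batch as a covariate and 0 to 2 when 1 library was left out, and the cause of these changes was not tested. The correlation of same-numbered libraries, taken on deviations from the group means, was -0.174 to 0.15. With 2 or 3 libraries a group these deviations are tied to each other, so the check cannot decide whether replicate numbers pair the mice. With a replicate block 0 of the 10 genes passed at any time, so the block changed no call of theirs. Over all genes the block gave 42, 31, 12 and 1 calls at 1, 8, 36 and 120 h, the likelihood ratio test 69, 89, 125 and 76, DESeq2 63, 96, 102 and 119, and no filter 328, 343, 141 and 52, against 13, 0, 4 and 9. Of 150 log2 fold changes under alternatives at each time, 15, 9, 18 and 12 had the opposite sign at 1, 8, 36 and 120 h, none of them in a value that passed. Precision is limited by 2 or 3 mice a group, by 2 batches at 8 h, and for Chrm5 by 5 to 90 counts a library. Where leaving out a library left 1 in a group, that library was assumed to vary like the others.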
